A study of Mus musculus with 9 samples.

Results

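Solute carriers are membrane proteins that move amino acids, sugars, nucleosides, ions, metals and metabolites across the plasma membrane and the membranes of organelles, and their gene names start with Slc and a family number. Expressed solute carriers were taken as the gene symbols of this form whose mean log2 array value was at least 6 in at least 1 of 3 subsets of γδ T cells, lymphocytes that recognise antigen through a γ and a δ receptor chain. Of 361 such symbols with an array row of their own, 99 met this rule, among 22180 genes tested. They were grouped by substrate, mostly through their family number. The symbols Slc9a3r1, Slc4a1ap, Slc7a6os and Slc2a4rg-ps met the rule by name only, since they are a scaffold protein, an adaptor protein, an opposite-strand gene and a pseudogene, which leaves 95 carriers in 11 substrate classes.

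The RNA came from C57BL/6 mice and was measured on 9 microarrays of the type Affymetrix Mouse Gene 2.0 ST, with 3 arrays a subset. Intraepithelial lymphocytes (IELs) were taken from the epithelium of the intestine. Naive-like and Type-1 cells were taken from axillary, brachial and inguinal lymph nodes, so subset and tissue differ together in both comparisons that involve IELs. The mice received no treatment that the labels name, and nothing used here states their age or the number of mice behind an array. The p-values rest on the spread between arrays within subsets, pooled over all 3 subsets and moderated over all genes. The third subset therefore also counts in a comparison of the other 2. Of 8 marker genes listed for these cells 5 were measured, Cd3e, Cd3d, Cd3g, Ptprc and Zap70, and their summed signal was 13.03 to 13.81 over the arrays. T cells of other kinds share them, so they do not check the γδ label. Of these, Cd3g and Zap70, both of the T-cell receptor machinery, were higher in IELs than in Type-1 cells, Cd3g by 0.99 ± 0.23 (adjusted p = 0.0269). The Cd3g call was lost without IELs replicate 2 or 3 or Type-1 replicate 2 or 3 (adjusted p = 0.0674 to 0.127), and that of Zap70 without IELs replicate 2 or 3 or Type-1 replicate 1 or 2 (adjusted p = 0.0788 to 0.132). Trdc, the constant segment of the δ chain that defines the lineage, was not analysed here. All values are on the log2 scale, where a difference of 1 is a 2-fold change, differences carry their standard error, n = 3 throughout, and adjusted p is limma's with Benjamini-Hochberg adjustment over all 22180 genes. Values of different genes are not compared, since array probes differ in brightness.

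T cells that leave the resting state import more glucose, glutamine and essential amino acids. The main entry points are the glucose transporters Slc2a1 and Slc2a3, the glutamine transporter Slc1a5 and the CD98 complex, in which the heavy chain Slc3a2 carries light chains such as Slc7a5 to the cell surface. Other carriers act inside the cell, such as Slc36a1 and Slc38a9 on lysosomes. The Slc35 family acts in the endoplasmic reticulum and Golgi apparatus, and most of the Slc25 family in the mitochondrial inner membrane.

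The threshold chose the members by their level, and a gene that reached 6 in 1 subset only had to be lower in the others, so the counts and tests below describe the members and support nothing by themselves. Of the 99 members, 52 reached 6 in all 3 subsets, 22 in 2 and 25 in 1, of which 18 in IELs only, 4 in Naive-like cells only and 3 in Type-1 cells only. Of the called members described below, 7 of 15 in IELs against Naive-like cells and 7 of 19 in IELs against Type-1 cells reached 6 in 1 subset only: Slc43a3, Slc26a10, Slc22a15, Slc39a4 and Slc16a6 in both, Slc25a24 and Slc28a2b in the former, and Slc16a10 and Slc31a1 in the latter. Just inside the threshold lay Slc35f6 (6.01 in IELs), Slc3a1 (6.01 in IELs) and Slc35b4 (6.01 in IELs). Just outside lay Slc9a3r2 (5.98 in IELs), Slc35d2 (5.96 in Type-1 cells) and Slc39a1 (5.95 in Naive-like cells).

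IELs and lymph node cells differed in a limited group of carriers, while Type-1 and Naive-like cells differed in none by the test. Against Naive-like cells, 8 members were higher and 7 lower in IELs, and against Type-1 cells 14 were higher and 5 lower. No member passed the test in Type-1 against Naive-like cells. The 15 members called in IELs against Naive-like cells are 15.2% of 99, beside 5.19% of all genes tested and 12.2% of all genes chosen by the same threshold. By direction the shares were 8.08% higher and 7.07% lower among members, against 3.57% and 1.62% of all genes and 7.97% and 4.24% of those past the threshold. In IELs against Type-1 cells the 19 called members are 19.2%, beside 5.14% of all genes and 12.4% of those past the threshold, with 14.1% of members higher and 5.05% lower against 3.73% and 1.41% of all genes and 8.68% and 3.71% of those past the threshold. In Type-1 against Naive-like cells 0 of 99 members passed limma's test, beside 0.284% of all genes and 0.854% of those past the threshold, and 12 members (12.1%) had an unadjusted p under 0.05, beside 6.48% and 11.1%. Among the 72 members whose mean over all 9 arrays was at least 6, a choice that uses no subset, 9 were called in IELs against Naive-like cells (12.5%) and 13 in IELs against Type-1 cells (18.1%), beside 9.64% and 9.82% of all genes chosen in that way. The 3 comparisons share arrays, so their counts are not independent of each other. Counts by class or list below cover few genes and are to be read beside these shares. Arrays of IELs and Naive-like cells did not overlap for 38.4% of members, 20.1% of all genes and 31.3% of those past the threshold. For IELs and Type-1 cells these shares were 42.4%, 19.8% and 28.7%, and for Type-1 and Naive-like cells 14.1%, 11.4% and 14.2%.

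**Figure D1:**
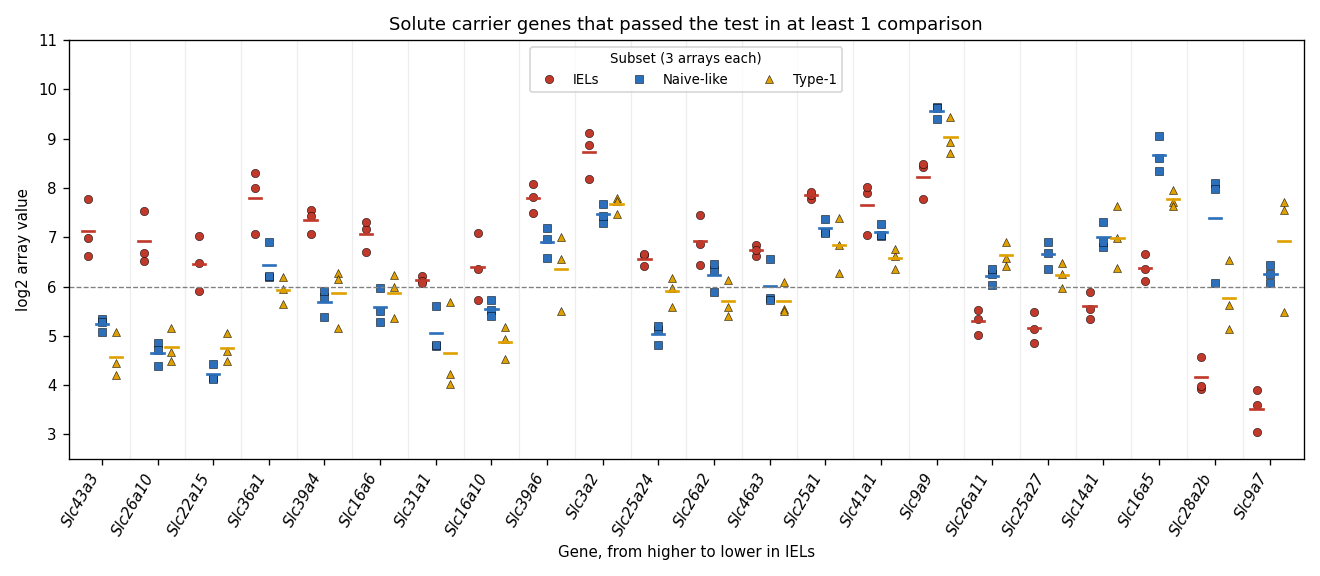
Log2 array values (vertical axis) of the 22 solute carrier genes that passed the test in at least 1 comparison, with 1 point per array, 3 arrays per subset, a short line at each subset mean and a dashed line at the threshold of 6. Slc43a3, Slc26a10 and Slc22a15 have all 3 IEL points above all lymph node points, and Slc9a7 and Slc16a5 have all 3 below.

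The class of amino acid carriers, set by family number, held 18 members, of which 3 were higher in IELs by the test against Naive-like cells and 4 higher than in Type-1 cells, with none lower. The median difference of the class was 0.07 against Naive-like and 0.48 against Type-1 cells. All genes past the threshold had medians of 0.03 and 0.15. Of them, 7.97% and 8.68% were called higher and 4.24% and 3.71% lower. One of the called genes in both comparisons, Slc43a3, encodes a transporter of purine nucleobases and is no amino acid carrier, which leaves 2 and 3 called. It read 6.62, 6.98 and 7.78 on the 3 IEL arrays, 5.34, 5.09 and 5.28 on the Naive-like arrays and 4.22, 4.44 and 5.07 on the Type-1 arrays. IELs lay above every lymph node array. The difference was 1.89 ± 0.30 against Naive-like cells (adjusted p = 0.0022) and 2.55 ± 0.30 against Type-1 cells (adjusted p = 0.00025), and both calls held without any single array.

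Slc36a1 encodes a proton-coupled amino acid exporter of lysosomes that takes part in amino acid sensing by mTORC1. It read 7.07, 8.31 and 7.995 in IELs, 6.19, 6.22 and 6.91 in Naive-like cells and 5.64, 5.95 and 6.20 in Type-1 cells. The IEL arrays were again above all others, though replicate 1 of the IELs lay close to replicate 3 of the Naive-like cells. The difference from Type-1 cells was 1.86 ± 0.32 (adjusted p = 0.0038). That from Naive-like cells was 1.35 ± 0.32 (adjusted p = 0.027) and missed the threshold without IELs replicate 2 or 3 or Naive-like replicate 1 or 2 (adjusted p = 0.124, 0.112, 0.122 and 0.103), and with array medians subtracted (adjusted p = 0.052). The lysosomal arginine sensor gene Slc38a9 differed by -0.13 ± 0.31 and 0.29 ± 0.31 in the same comparisons, and the endolysosomal histidine and peptide transporter gene Slc15a4 by 0.05 ± 0.20 and 0.30 ± 0.20; neither passed.

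The promoter window of Slc36a1 is shown because it holds the E-box letters CACGTG at 2 places, positions -31 and -3 from the annotated start. E-boxes are bound by factors such as Myc, TFEB and MondoA. The windows of RefSeq (GRCm38.p6) run from 250 bases before to 50 bases after an annotated start, which need not be the gene's outermost one, were found for 72 of the 99 members, and are printed 5′ to 3′ with E-box letters in capitals. The window lies at chr11:55204090-55204389 on the plus strand.
Slc36a1: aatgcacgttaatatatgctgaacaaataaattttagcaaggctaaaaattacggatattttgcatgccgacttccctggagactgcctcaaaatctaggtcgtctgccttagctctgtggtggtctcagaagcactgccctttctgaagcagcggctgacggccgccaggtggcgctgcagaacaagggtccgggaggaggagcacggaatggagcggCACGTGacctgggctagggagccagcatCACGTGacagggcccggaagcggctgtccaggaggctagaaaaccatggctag
Both strands were searched for CACGTG, for the amino acid response element TGATGNAA and for the AP-1 letters TGANTCA, of which none contains another. The E-box letters occurred in 10 of the 72 member windows (13.9%) and in 7.24% of 27025 windows of all genes, the amino acid response letters in 3 (4.17%, against 4.06%) and the AP-1 letters in 6 (8.33%, against 7.93%). Of the 15 members higher in IELs in either comparison 10 had a window, and 2 of these, Slc36a1 and Slc25a1, held the E-box letters. Such a match is a description of the letters and shows no binding.

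Slc3a2, the CD98 heavy chain, read 8.18, 8.88 and 9.12 in IELs, 7.30, 7.43 and 7.67 in Naive-like cells and 7.80, 7.48 and 7.74 in Type-1 cells. All IEL arrays were higher than all others. The difference was 1.26 ± 0.25 against Naive-like cells (adjusted p = 0.0085) and 1.06 ± 0.25 against Type-1 cells (adjusted p = 0.028). The latter call was lost without IELs replicate 2 or 3 or Type-1 replicate 1 or 2 (adjusted p = 0.116, 0.132, 0.0516 and 0.104). Its light chain partner Slc7a5, which carries large neutral amino acids, passed in neither comparison: its differences were -0.13 ± 0.30 and -0.49 ± 0.30, and the 95% intervals of -0.80 to 0.53 and -1.15 to 0.17 lie below the estimates for Slc3a2. The difference between the 2 genes was not tested. Slc7a6, another light chain, differed by 0.15 ± 0.29 and 0.49 ± 0.29. Slc16a10, a carrier of aromatic amino acids, was higher in IELs than in Type-1 cells by 1.51 ± 0.31 (adjusted p = 0.012, and 0.0528 without Type-1 replicate 2), and stood at 0.84 ± 0.31 against Naive-like cells (adjusted p = 0.19).

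The other amino acid carriers did not pass in any comparison. Slc1a5, the main glutamine importer of T cells, read 8.46 to 9.07 in IELs, 8.69 to 9.29 in Naive-like and 8.74 to 9.33 in Type-1 cells, and the subsets overlapped throughout. Its 95% interval for IELs against Naive-like cells was -0.70 to 0.38, and on another row of Slc1a5 the difference was 0.04. Slc38a1, a glutamine and alanine importer, differed by 0.09 ± 0.21 (-0.37 to 0.55) and 0.03 ± 0.21 (-0.43 to 0.48) in IELs against Naive-like and Type-1 cells. Slc36a4, an amino acid transporter without proton coupling, was at 9.51 ± 0.11 (SD, n = 3) in IELs, 9.69 ± 0.29 in Naive-like and 10.22 ± 0.39 in Type-1 cells. A dimmer array row of Slc36a4 went the other way, with IELs higher by 0.93 and 0.85 than Naive-like and Type-1 cells, so no direction is given for this gene in IELs. The taurine transporter gene Slc6a6 had its lowest mean in Type-1 cells, at 6.28 ± 0.83 against 7.22 ± 0.39 and 7.18 ± 0.22, with a difference from Naive-like cells of -0.94 ± 0.35 (adjusted p = 0.64).

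Sugar carriers showed no call in any comparison. The 6 carriers of this class had median differences of -0.22 and -0.12 in IELs against Naive-like and Type-1 cells. Slc2a1, the GLUT1 glucose transporter, read 7.42, 7.89 and 8.42 in IELs, 7.94, 8.13 and 8.16 in Naive-like cells and 7.73, 8.20 and 8.42 in Type-1 cells. The subsets overlapped, and the 95% intervals of the difference were -0.75 to 0.42 against Naive-like and -0.78 to 0.38 against Type-1 cells. Slc2a3, the high-affinity transporter GLUT3, had all 3 IEL arrays (6.55, 7.28 and 7.30) above the Naive-like arrays (6.14, 5.23 and 6.41). Its difference of 1.12 ± 0.42 did not pass (adjusted p = 0.21). Arrays of IELs and Naive-like cells did not overlap for 31.3% of all genes past the threshold. Slc50a1, a sugar transporter of the SWEET family, and Slc37a1, a sugar phosphate exchanger, differed by -0.34 ± 0.27 and -0.38 ± 0.26 in that comparison.

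Some genes that act on transporters passed. Arrdc4, an α-arrestin that lowers glucose transporters at the cell surface, read 7.04, 7.42 and 7.44 in IELs and 4.71, 4.47 and 5.07 in Naive-like cells. It was higher in IELs by 2.55 ± 0.23 against Naive-like (adjusted p = 2.3e-05) and by 2.71 ± 0.23 against Type-1 cells (adjusted p = 1.8e-05). Its relative Arrdc3 was higher by 3.10 ± 0.56 and 3.82 ± 0.56 (adjusted p = 0.005 and 0.0013), with a wide spread of 4.34, 6.57 and 7.36 on the Type-1 arrays. Txnip, the related arrestin that also acts on glucose uptake, differed by -0.24 ± 0.23 and -0.15 ± 0.23. Of 23 measured genes on a list of transporter partners and regulators, 3 were higher in IELs when set against Naive-like cells, the third being Stk39, a kinase of the cation-chloride cotransporters (1.69 ± 0.30, adjusted p = 0.0045), and 5 were higher than in Type-1 cells, the others being the stress factor gene Ddit3 (1.00 ± 0.25, adjusted p = 0.036) and the metallothionein gene Mt2, with none lower. The Stk39 call against Type-1 cells was lost without IELs replicate 2 or 3 or Type-1 replicate 2 (adjusted p = 0.0688 to 0.0982), and that of Ddit3 without IELs replicate 1, 2 or 3, Naive-like replicate 3 or Type-1 replicate 2 or 3 (adjusted p = 0.0532 to 0.136). The medians of this list were 0.16 and 0.36. Among all genes tested, 3.57% and 3.73% were called higher in IELs against Naive-like and Type-1 cells. Bsg, the chaperone of lactate carriers, differed by 0.07 ± 0.21 and 0.15 ± 0.21 and did not pass.

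Of 20 transporters on a list known from activated T cells, 13 were members. By the test 1 of the 20, Slc3a2, was above Naive-like cells in IELs, and 2, Slc3a2 and Slc16a1, were higher than in Type-1 cells, with medians of 0.07 and 0.13. Slc16a1, the MCT1 carrier of lactate and pyruvate, stayed under the threshold of 6, with 5.25, 5.80 and 6.53 in IELs, 4.83, 5.20 and 5.02 in Naive-like and 4.57, 3.97 and 4.02 in Type-1 cells. Its difference from Type-1 cells was 1.67 ± 0.30 (adjusted p = 0.0051), the 1 call among the 262 solute carriers below the threshold in that comparison (0.382%). None of those 262 passed in IELs against Naive-like or in Type-1 against Naive-like cells, where 22 and 9 had an unadjusted p under 0.05.

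**Figure D2:**
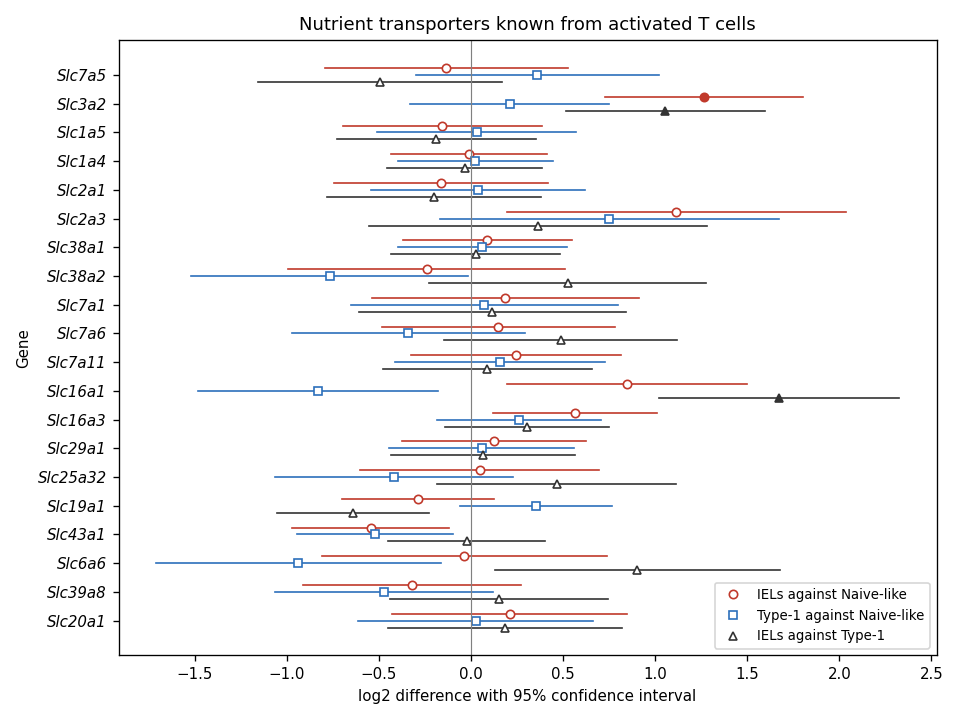
Log2 differences (horizontal axis) with 95% confidence intervals for 20 nutrient transporters known from activated T cells (vertical axis), in 3 comparisons marked by shape and colour, with filled markers where the adjusted p is under 0.05. Slc3a2 is filled for both comparisons with IELs and Slc16a1 for IELs against Type-1 cells, and the other markers are open.

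The 2 members of the monocarboxylate class differed, in opposite directions; another gene of the Slc16 family, Slc16a10, is described with the amino acid carriers. Slc16a5, whose protein (MCT6) carries drugs such as bumetanide in expression systems, read 6.10, 6.36 and 6.66 in IELs, 8.35, 8.61 and 9.05 in Naive-like cells and 7.96, 7.71 and 7.63 in Type-1 cells. The subsets did not overlap, with Type-1 cells between the others. The difference was -2.30 ± 0.23 against Naive-like (adjusted p = 6.3e-05) and -1.39 ± 0.23 against Type-1 cells (adjusted p = 0.0032), and Type-1 cells stood at -0.90 ± 0.23 against Naive-like cells (adjusted p = 0.26). Slc16a5 has another, dimmer array row, on which IELs were also lower than Naive-like and Type-1 cells, by differences of -1.72 and -0.38; with the mean of both rows the call against Type-1 cells was lost (adjusted p = 0.0803). Slc16a6, a relative that exports ketone bodies, was higher in IELs, at 6.70, 7.17 and 7.30 against 5.28, 5.98 and 5.51 in Naive-like and 6.24, 5.37 and 5.99 in Type-1 cells. Its differences were 1.47 ± 0.27 (adjusted p = 0.0063) and 1.19 ± 0.27 (adjusted p = 0.025), and the latter call was lost without IELs replicate 2 or 3 or Type-1 replicate 2 (adjusted p = 0.102, 0.117 and 0.0965).

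Among 4 nucleoside carriers, Slc28a2b fell in IELs. Slc28a2, its neighbour on chromosome 2, encodes the concentrative purine nucleoside transporter CNT2. Slc28a2b is a paralogue of it; how far the array probes separate the pair is not known here. Slc28a2b read 3.93, 3.99 and 4.58 in IELs, 8.11, 6.08 and 7.98 in Naive-like cells and 5.62, 5.15 and 6.54 in Type-1 cells. IELs were below all other arrays, while replicate 2 of the Naive-like cells lay within the range of the Type-1 arrays. The difference was -3.22 ± 0.49 against Naive-like cells (adjusted p = 0.0015) and -1.61 ± 0.49 against Type-1 cells (adjusted p = 0.096). Type-1 cells stood at -1.62 ± 0.49 against Naive-like cells (adjusted p = 0.43); without Naive-like replicate 2 this became -2.27 ± 0.37 with an adjusted p of 0.0313, the 1 call of a member in that comparison when any array was left out. Slc28a2 read 8.88, 8.90 and 9.31 in IELs, 8.55, 8.65 and 8.59 in Naive-like and 8.02, 8.50 and 8.96 in Type-1 cells, and did not pass (0.43 ± 0.24 and 0.53 ± 0.24 in IELs against Naive-like and Type-1 cells). The plasma membrane nucleoside transporter gene Slc29a1 differed by 0.12 ± 0.23 and 0.07 ± 0.23.

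The promoter windows of this pair are shown because the neighbouring genes had unlike values across the subsets. Both lie on the plus strand of chromosome 2 (GRCm38.p6), that of Slc28a2 at chr2:122426185-122426484 and that of Slc28a2b at chr2:122484691-122484990. Neither window held any of the 3 motifs.
Slc28a2: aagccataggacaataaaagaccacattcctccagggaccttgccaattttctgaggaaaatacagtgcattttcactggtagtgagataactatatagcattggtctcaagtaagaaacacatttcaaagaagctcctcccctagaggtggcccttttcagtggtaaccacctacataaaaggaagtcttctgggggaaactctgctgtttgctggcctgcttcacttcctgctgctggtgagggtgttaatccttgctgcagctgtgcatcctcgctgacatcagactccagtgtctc
Slc28a2b: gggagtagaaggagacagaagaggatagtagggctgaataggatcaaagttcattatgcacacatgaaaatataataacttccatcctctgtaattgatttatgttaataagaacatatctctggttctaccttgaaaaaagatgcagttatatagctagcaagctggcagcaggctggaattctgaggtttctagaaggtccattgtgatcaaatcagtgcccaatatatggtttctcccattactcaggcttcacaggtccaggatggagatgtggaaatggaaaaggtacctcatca
Aligned without gaps, the windows had the same base at 74 of 300 positions, and their longest shared run was 8 bases. The windows need not cover matching stretches of the pair, so these values do not show how alike the promoters are. A link to the unlike values of the genes was not tested. The gene record of Slc28a2 begins at position 122426357, inside its window and upstream of the start that the window is set on.

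Carriers of inorganic ions moved in both directions. Of 11 carriers, 1 was higher and 3 lower in IELs than in Naive-like cells. Against Type-1 cells 3 were higher and 2 lower, and the class medians were 0.38 and 0.18 in the same order. Of all genes past the threshold, 7.97% and 8.68% were called higher and 4.24% and 3.71% lower. Slc9a7, a sodium-proton exchanger of the trans-Golgi network, read 3.04, 3.90 and 3.60 in IELs, 6.44, 6.08 and 6.26 in Naive-like cells and 5.49, 7.72 and 7.55 in Type-1 cells. IELs were below all other arrays and Type-1 replicate 1 was below the Naive-like arrays. The difference was -2.74 ± 0.47 against Naive-like cells (adjusted p = 0.0037) and -3.41 ± 0.47 against Type-1 cells (adjusted p = 0.00084). Slc9a9, the endosomal exchanger of the same family, fell by 1.33 ± 0.25 against Naive-like cells (adjusted p = 0.0065), from 9.41, 9.65 and 9.62 to 7.78, 8.42 and 8.49, and stood at -0.80 ± 0.25 against Type-1 cells (adjusted p = 0.1). Slc9a8, a Golgi exchanger, differed by 0.52 ± 0.23 and 0.13 ± 0.23 and did not pass, so calls and their direction were not shared across the family. Whether the members of this family differ from each other was not tested.

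Anion carriers of the Slc26 family split as well. Slc26a10 read 6.53, 6.68 and 7.54 in IELs, 4.86, 4.72 and 4.39 in Naive-like cells and 4.67, 5.16 and 4.49 in Type-1 cells. All IEL arrays were above all others, by differences of 2.26 ± 0.28 (adjusted p = 0.00034) and 2.14 ± 0.28 (adjusted p = 0.00058). Slc26a11, a lysosomal sulfate and chloride transporter, was lower in IELs, at 5.02, 5.35 and 5.53 against 6.26, 6.03 and 6.36 in Naive-like and 6.59, 6.42 and 6.90 in Type-1 cells. Its differences were -1.34 ± 0.21 against Type-1 cells (adjusted p = 0.0023) and -0.92 ± 0.21 against Naive-like cells (adjusted p = 0.023), and the latter call was lost without IELs replicate 1 or 2 or Naive-like replicate 1 or 3 (adjusted p = 0.0753, 0.0731, 0.0944 and 0.0936). The sulfate importer gene Slc26a2 and the magnesium transporter gene Slc41a1 were higher in IELs than in Type-1 cells only by the test, at 1.21 ± 0.29 and 1.08 ± 0.26 (adjusted p = 0.031 and 0.029), and stood at 0.69 ± 0.29 and 0.55 ± 0.26 against Naive-like cells. Slc41a1 was named because it was called, outside the naming rule. Each of these calls was lost without any 1 of 5 arrays, IELs replicates 2 and 3, Naive-like replicate 1 and Type-1 replicates 1 and 2, at adjusted p from 0.052 to 0.139 for Slc26a2 and 0.0503 to 0.139 for Slc41a1. The phosphate importer gene Slc20a1 and the potassium-chloride cotransporter gene Slc12a7 passed in no comparison, Slc12a7 standing at -0.72 ± 0.23 in IELs against Naive-like cells (adjusted p = 0.12).

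Of 14 metal carriers, 1 was called against Naive-like cells and 3 against Type-1 cells, all higher in IELs, with medians of 0.24 and 0.60. Of all genes past the threshold, 7.97% and 8.68% were called higher and 4.24% and 3.71% lower. Slc39a4, a zinc importer known from enterocytes, read 7.08, 7.55 and 7.44 in IELs, 5.38, 5.80 and 5.91 in Naive-like and 5.17, 6.28 and 6.16 in Type-1 cells. IELs were above all others by 1.66 ± 0.29 (adjusted p = 0.0041) and 1.49 ± 0.29 (adjusted p = 0.0094, and 0.0514 without IELs replicate 2). Slc39a6, another zinc importer, read 7.49, 7.82 and 8.08 in IELs, 6.59, 6.96 and 7.19 in Naive-like cells and 5.51, 6.56 and 7.01 in Type-1 cells. It was higher than in Type-1 cells by 1.44 ± 0.34 (adjusted p = 0.028) and stood at 0.88 ± 0.34 against Naive-like cells (adjusted p = 0.22). The copper importer gene Slc31a1 was higher than in Type-1 cells by 1.49 ± 0.38 (adjusted p = 0.043). The Slc39a6 call was lost without IELs replicate 2 or 3 or Type-1 replicate 1 or 2 (adjusted p = 0.0512 to 0.126), and that of Slc31a1 without any 1 of 7 arrays, leaving out Naive-like replicate 3 and Type-1 replicate 3 being the exceptions (adjusted p = 0.0549 to 0.15). The zinc transporter gene Slc39a9 and the haem transporter gene Slc48a1 differed by 0.21 ± 0.30 and 0.43 ± 0.30 against Naive-like cells and passed in no comparison, and neither did the metallothionein gene Mt1 (0.74 ± 0.21 and 0.64 ± 0.21; adjusted p = 0.077 and 0.14). The other metallothionein gene, Mt2, was named outside the naming rule. It was higher in IELs than in Type-1 cells by 0.89 ± 0.21 (adjusted p = 0.0262) and stood at 0.53 ± 0.21 against Naive-like cells (adjusted p = 0.231). Mt2 read 3.51, 4.03 and 3.91 in IELs and 2.90, 3.07 and 2.81 in Type-1 cells, all under the median gene mean of 4.52. Whether its call holds without single arrays was not examined.

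Of 22 members of the Slc25 family, most of them mitochondrial carriers, 1 was higher and 1 lower in IELs in each comparison. The medians were 0.19 against Naive-like and 0.42 against Type-1 cells. Slc25a24, which exchanges ATP-magnesium for phosphate, read 6.41, 6.64 and 6.66 in IELs, 4.82, 5.12 and 5.20 in Naive-like cells and 5.59, 5.96 and 6.18 in Type-1 cells. The 3 subsets did not overlap. IELs were higher than Naive-like cells by 1.52 ± 0.21 (adjusted p = 0.0007), while Type-1 cells stood at 0.86 ± 0.21 against Naive-like cells (adjusted p = 0.22) and IELs at 0.66 ± 0.21 against Type-1 cells (adjusted p = 0.11). Slc25a27, an uncoupling protein relative (UCP4), was lower in IELs at 5.48, 5.13 and 4.85, against 6.68, 6.37 and 6.91 in Naive-like and 6.25, 5.97 and 6.48 in Type-1 cells. Its differences were -1.50 ± 0.23 (adjusted p = 0.0018) and -1.08 ± 0.23 (adjusted p = 0.017), the latter lost without IELs replicate 2 or 3 or Type-1 replicate 1 or 3 (adjusted p = 0.0685, 0.0903, 0.0501 and 0.0532).

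The citrate carrier gene Slc25a1, which supplies cytosolic acetyl-CoA for lipid synthesis, was named because it was called, outside the naming rule. It was higher in IELs than in Type-1 cells by 1.02 ± 0.25 (adjusted p = 0.039), and the call was lost without any 1 array other than Type-1 replicate 3 (adjusted p = 0.0542 to 0.137). The 3 mitochondrial carriers of highest mean over all 9 arrays did not pass. Slc25a5, which exchanges ADP for ATP, was at 7.92 ± 0.15, 7.92 ± 0.13 and 7.86 ± 0.23 (SD, n = 3) in IELs, Naive-like and Type-1 cells, with 95% intervals of -0.42 to 0.43 and -0.37 to 0.48 for IELs against each. The phosphate carrier gene Slc25a3 had IELs above both lymph node subsets, at 0.64 ± 0.24 and 0.62 ± 0.24 (adjusted p = 0.21 and 0.2), and the oxoglutarate carrier gene Slc25a11 differed by 0.13 ± 0.22 and 0.38 ± 0.22.

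The remaining classes held few calls. Slc22a15, an organic cation and zwitterion carrier, read 5.91, 6.48 and 7.02 in IELs, 4.15, 4.42 and 4.12 in Naive-like and 4.69, 4.50 and 5.06 in Type-1 cells. IELs were above all others by 2.24 ± 0.27 (adjusted p = 0.00028) and 1.72 ± 0.27 (adjusted p = 0.0024). Slc14a1, a urea channel, was lower in IELs at 5.35, 5.55 and 5.89, against 6.81, 6.91 and 7.31 in Naive-like and 6.98, 6.37 and 7.63 in Type-1 cells. Its differences of -1.41 ± 0.30 and -1.39 ± 0.30 (adjusted p = 0.013 and 0.016) were lost without IELs replicate 1 (adjusted p = 0.0536 and 0.0542) or replicate 2 (adjusted p = 0.0571 and 0.0648), the former also without Naive-like replicate 3 (adjusted p = 0.0688). Slc17a9, which loads ATP into vesicles, stood at -0.96 ± 0.28 in IELs against Type-1 cells (adjusted p = 0.079).

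Of the vitamin and lysosomal carriers, Slc46a3 was higher in IELs than in Type-1 cells by 1.02 ± 0.26 (adjusted p = 0.039), a call lost without any 1 of 6 arrays, IELs replicates 1, 2 and 3, Naive-like replicate 1 and Type-1 replicates 1 and 2 (adjusted p = 0.0548 to 0.134). The riboflavin transporter gene Slc52a3 stood at 0.86 ± 0.25 against Naive-like cells (adjusted p = 0.073). None of 10 carriers of nucleotide sugars and their relatives passed, with medians of 0.25 and 0.46 in the comparisons with IELs. Slc35b1, which brings ATP into the endoplasmic reticulum, differed by 0.28 ± 0.22 and 0.57 ± 0.22, and Slc35b3, which brings the sulfate donor PAPS into the Golgi apparatus, by 0.16 ± 0.22 and 0.57 ± 0.22. The choline transporter gene Slc44a2 and its classmate Slc10a7 passed in no comparison.

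**Figure D3:**
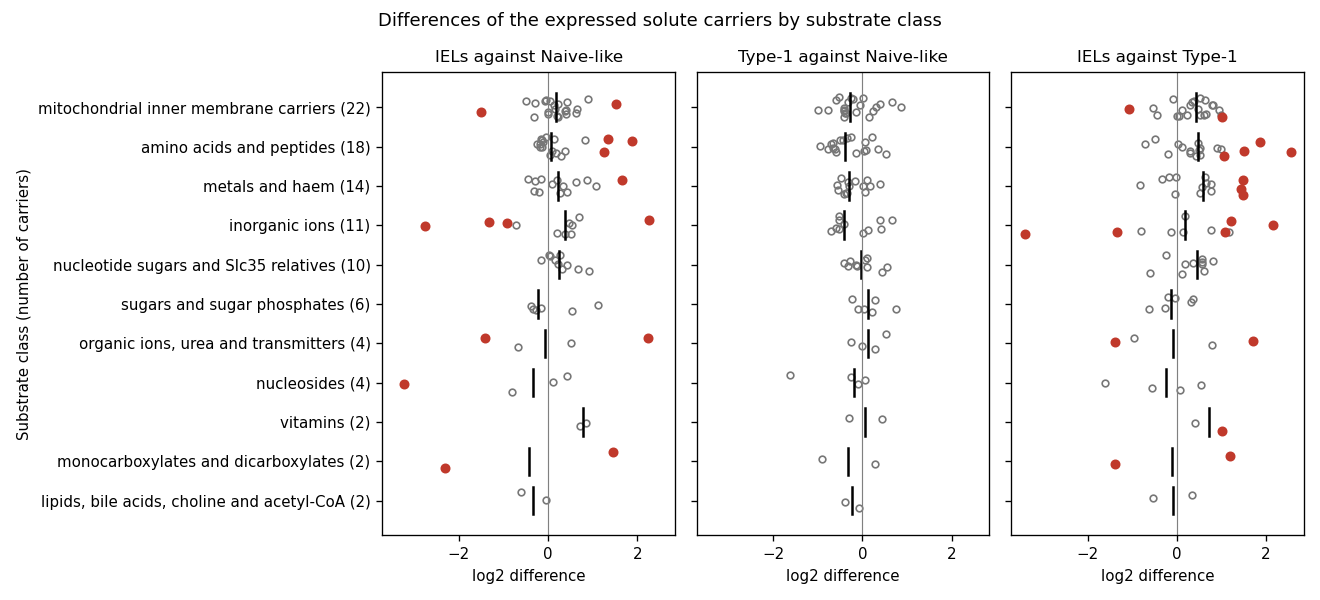
Log2 differences (horizontal axes) of the 95 expressed carriers by substrate class (vertical axis, with the number of carriers), 1 panel per comparison, with a filled point where the adjusted p is under 0.05, open points otherwise and a line at the class median. Filled points lie on both sides of 0 in the comparisons with IELs, and none is filled for Type-1 against Naive-like cells. For amino acids, metals and vitamins they lie on the higher side only, and for nucleosides on the lower side only. By its family number, Slc43a3 is drawn among the amino acid carriers.

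Within the lymph node, the members with an unadjusted p under 0.05 were 9 lower in Type-1 cells, namely Slc28a2b, Slc25a23, Slc6a6, Slc16a5, Slc25a16, Slc38a2, Slc43a2, Slc43a3 and Slc12a7, and 3 higher, Slc25a24, Slc25a33 and Slc36a4. They are named after their values were seen. Their adjusted p ran from 0.218 for Slc25a24 to 0.769 for Slc43a3. Over all members the median difference of Type-1 against Naive-like cells was -0.18, beside -0.10 for all genes past the threshold and 0.03 for all genes tested.

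RNA typical of intestinal epithelium moved with both comparisons that involve IELs. Of 30 epithelial marker genes, 21 were above Naive-like cells in IELs and 20 higher than in Type-1 cells, with none lower and medians of 1.71 and 1.77. Their summed signal on the log2 scale was 11.15 to 12.09 in IELs, 8.94 to 9.16 in Naive-like and 9.004 to 9.18 in Type-1 cells. On the IEL arrays it was 11.37, 12.09 and 11.15 for replicates 1, 2 and 3, and that of the enterocyte transporters described next was 10.86, 11.26 and 11.33. Of 38 measured transporters known from enterocytes, 11 of them members, 2 were above Naive-like cells in IELs (Slc39a4 and Slc36a1) and 4 higher than in Type-1 cells (with Slc16a10 and Slc26a2 added), with none lower and medians of 0.31 and 0.41. Among all genes tested, 3.57% and 3.73% were called higher in IELs in these comparisons. Of the 4 called transporters, Slc36a1 and Slc39a4 were highest on IELs replicate 2, and Slc16a10 and Slc26a2 on replicate 3. The summed signal of the epithelial markers was highest on replicate 2, but single markers varied. Cdh1 was highest on replicate 2, while Fabp1 and Fabp2 were highest on replicate 1. The brush border glucose transporter gene Slc5a1 read 3.68, 4.62 and 4.61 in IELs and 3.50, 3.31 and 3.32 in Naive-like cells, and did not pass (0.93 ± 0.31, adjusted p = 0.14). The peptide transporter gene Slc15a1 differed by 0.01 ± 0.22, at means of 3.86 in IELs and 3.85 in Naive-like cells, under the median gene mean of 4.52. The enterocyte transporters that are not members stayed under the threshold of 6, and RMA compresses differences of dim genes. The list medians therefore do not measure how much enterocyte RNA the IEL samples held. The part of epithelial RNA in the higher values of Slc39a4, Slc36a1, Slc16a10, Slc26a2 and the other members was not tested. Nor was it tested for Slc16a1, Arrdc4, Arrdc3, Stk39, Ddit3 and Mt2, which are not members. Fewer cells of a type and less RNA per cell cannot be told apart in these bulk samples. The summed signal of B cell markers overlapped between all subsets, and that of stromal and endothelial markers was lower in IELs (7.31 to 7.62) than in Naive-like cells (9.05 to 9.27). The highest signal of that list was Pecam1, its 1 called gene, with means of 8.84 in Naive-like cells and 6.04 in IELs (-2.81 ± 0.30). The other genes of the list did not pass, and the list median in that comparison was -0.04. Of 7 measured myeloid markers 1, Itgam, was higher in IELs in both comparisons. Its call against Naive-like cells was lost without any 1 array other than Type-1 replicate 2 (adjusted p = 0.0523 to 0.205), and that against Type-1 cells without IELs replicate 1 or 2 or Type-1 replicate 2 (adjusted p = 0.0599 to 0.0916).

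**Figure D4:**
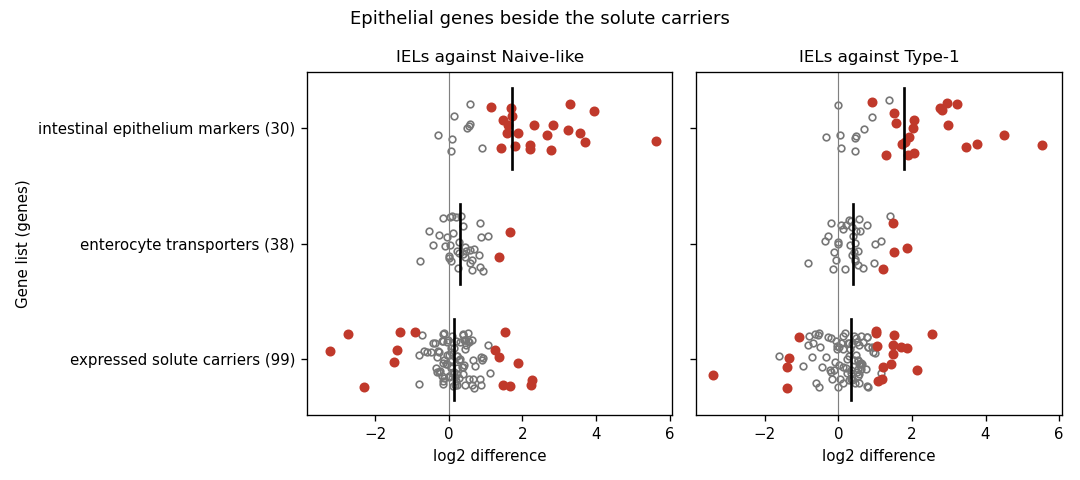
Log2 differences (horizontal axes) of 30 intestinal epithelium markers, 38 transporters known from enterocytes and the 99 expressed solute carriers (vertical axis) in both comparisons with IELs, with filled points at an adjusted p under 0.05 and a line at each median. The markers have medians of 1.71 and 1.77, the enterocyte transporters 0.31 and 0.41 and the solute carriers 0.15 and 0.35.

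Replicate 3 of every subset carries a date code in its description, which the other arrays lack. It was the highest array of its subset for 59.6% of the members in IELs, 71.7% in Naive-like and 67.7% in Type-1 cells, beside 44.7%, 70.2% and 54.6% of all genes past the threshold. With the code as a term in the fit, 17 members were called in IELs against Naive-like cells, 0 in Type-1 against Naive-like and 23 in IELs against Type-1 cells. Over all genes tested the calls in these comparisons were 1312, 76 and 1374, beside 1152, 63 and 1140 without the term. Within the 6 arrays without the code the member counts were 9, 0 and 7, of which 8 and 7 were among those called over all arrays. The counts of all genes within these 6 arrays were 534, 20 and 565. Slc43a3, Slc26a10, Slc22a15 and Slc16a5 were called there in both comparisons with IELs, Slc9a9, Slc28a2b, Slc25a24 and Slc14a1 in IELs against Naive-like cells, and Slc26a11, Slc31a1 and Slc46a3 in IELs against Type-1 cells. The calls of Slc9a7, Slc36a1, Slc39a4, Slc16a6, Slc3a2 and Slc25a27 were lost in both comparisons, at adjusted p of 0.0506 to 0.203. The count for IELs against Type-1 cells, 19, was 8 without IELs replicate 2 and 11 without IELs replicate 3. It was 11 without Type-1 replicate 1 and 10 without Type-1 replicate 2. Over all genes the 1140 calls of that comparison became 732, 724, 869 and 850 in the same order. Quantile normalization again gave 14 higher and 8 lower members in that comparison, with 1247 of all genes called.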

How the data were processed

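The deposited table holds 41345 array rows on 9 arrays as log2 values, which the authors produced by RMA in the package oligo, according to the submitters' processing notes. For versions, filters and genome build nothing used here gives an answer. The lowest value is 0.785 and the highest 13.46, none is missing, and the medians of the arrays span 4.25 to 4.43. No detection calls come with them, and RMA compresses differences of dim genes. The number of arrays limits the precision. Arrays of 1 subset correlated at 0.947 to 0.983 and arrays of different subsets at 0.912 to 0.975 over the genes tested. No pairs of arrays held identical values.

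Rows were named through the platform annotation: 23521 rows had 1 symbol, 1814 several and 16010 none. Only rows with 1 symbol were used, each gene by its row of highest mean. Of the 99 members 8 had more than 1 row. Rows of several symbols that include a solute carrier numbered 18 and are not analysed here.

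limma 3.58.1 in R 4.3.3 was fitted to 22180 genes and all 9 arrays with 1 mean per subset (lmFit, contrasts, eBayes), two-sided, with Benjamini-Hochberg adjustment and a threshold of 0.05, with 6 residual and 6 prior degrees of freedom. The fit was tested on simulated data. Members and gene lists were chosen with earlier results of these data known. The substrate class of symbols that are not carriers was set after the values were seen. Named genes are the 10 members of largest difference in each direction of a comparison, among those called without overlap of arrays; per class the 3 of highest mean; the 3 nearest the threshold on each side; and per list up to 4 called genes or 2 of highest mean. Some genes outside this rule are marked, or serve as partners of a named gene. Others, such as Slc2a3, Slc6a6, Slc5a1 and Slc15a1, were chosen by no stated rule. By the labels, arrays numbered 3 share a date code across subsets; no label ties the arrays numbered 1 or 2. Tables and plots were made with Python 3.11.15, pandas 2.3.3, numpy 2.4.6, scipy 1.17.1 and matplotlib 3.10.9.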

Additional observations from a re-analysis of the deposited data

How the results depend on the processing

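Each choice was varied singly. Between arrays, medians were subtracted or values normalized again by quantiles or cyclic loess. In the fit, dim genes under the 40th percentile were dropped, spread was fitted robustly with a trend, arrays were weighted, or the third subset was left out. Genes were also taken as the mean of their rows, and calls required a log2 difference of at least 1. The date code, each array and the threshold for membership were varied too. Removing both arrays of lowest weight, IELs replicate 1 and Type-1 replicate 3, was chosen after seeing the data. No named member reversed a called direction under these settings. Array weights raised the members called in IELs against Naive-like cells from 15 to 26, and the calls over all genes from 1152 to 1920. The cause was not tested. Within the 6 arrays without the date code 9 members were called in IELs against Naive-like and 7 in IELs against Type-1 cells, with fewer samples. Over all genes the calls were 534 and 565. A threshold of 7 left 9 and 10 called members, and a mean over all 9 arrays of at least 6 left 9 in IELs against Naive-like cells, with fewer members. Leaving out each array gave 12 to 16 called members in IELs against Naive-like, 0 to 1 in Type-1 against Naive-like and 8 to 22 in IELs against Type-1 cells. Over all genes these ranges were 826 to 1227, 34 to 87 and 724 to 1308. With the replicate number as a block the member counts were 18, 0 and 22, and those of all genes 1378, 81 and 1405. Arrays of the same number deviated together at correlations of -0.015 to 0.382 and arrays of different numbers at -0.29 to 0.212. The 3 pairs of replicate 3, which share the date code, stood at 0.229, 0.303 and 0.382, but not every pair was above 0.1, so the numbers as a whole were not taken as pairing the samples.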
